A study of Mus musculus with 8 samples.

Results

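Forkhead genes encode transcription factors that share a winged-helix DNA-binding domain, and 9 of them are described here by the chromatin loops, topologically associating domains (TADs) and CTCF peaks at their gene bodies. The 9 genes are Foxe3, Foxd2, Foxd3, Foxc1, Foxf2, Foxq1, Foxa1, Foxa2 and Foxb2, out of 21631 protein-coding genes on chromosomes 1 to 19 and X, and 35 other mouse forkhead genes served as a family background. A loop was assigned to a gene when either of its anchors overlapped the GRCm38 gene body widened by 5 kb on each side. TADs and CTCF peaks touching the same interval were assigned in the same way.

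Hi-C, which counts ligated pairs of DNA ends genome-wide, was available for 3 cell types with 2 replicates each, merged by the authors into 1 loop list and 1 TAD list per cell type. The ES cells were wild-type v6.5 mouse embryonic stem cells, an established line grown without feeders in medium with LIF. Lens epithelium and lens fiber cells were separated from lenses of newborn CD-1 mice at postnatal day 0.5, and each replicate pooled 30 lenses. CTCF ChIP-seq of the same lens cell types gave 1 peak list each, from 200 lenses per sample. The labels name 1 sample per lens cell type where the study's methods name 2 biological replicates, so how many samples stand behind a peak list is not settled here. ES cells are without a CTCF list here. All Hi-C material was fixed in 2.0% formaldehyde, and no genotype or treatment differed within a cell type. Cell type, mouse strain and culture against tissue cannot be told apart in the comparison of ES cells with lens. Neither can a loop held by fewer cells and a loop that is weaker in every cell. No expression is in the files used here, so the labelled cell types were not checked against marker genes.

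As background, a chromatin loop is a pair of distant segments that meet more often than their surroundings, and many loops end at sites of CTCF, a zinc finger protein at which the cohesin complex stalls as it extrudes DNA. TADs are stretches of chromatin whose parts contact each other more than the DNA outside. Foxe3 is the forkhead factor of the lens: it is made in the lens vesicle and lens epithelium, keeps epithelial cells dividing, and is turned off as fiber cells differentiate. Foxc1 acts in the anterior segment of the eye, Foxd3 in neural crest and pluripotent cells, and Foxa1 and Foxa2 as pioneer factors of the endoderm. Foxf2 acts in mesenchyme and pericytes, Foxq1 in hair and epithelia, Foxd2 in mesoderm and kidney, and Foxb2 in the developing nervous system.

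The promoters of the genes on which the loop results turn are printed first. They run from 250 bases before to 50 bases after the annotated start (RefSeq, GRCm38.p6), 5′ to 3′ on the gene's strand, and entries for 8 of the 9 genes were found in the promoter table. Capitals mark matches to either of the 2 motifs searched on both strands, the CTCF core letters CCAGGGGGCGC and the forkhead motif GTAAACA. The CTCF core letters were copied from the Foxd2 promoter itself. Foxe3 and Foxd2 are shown because they are neighbours that share loops, Foxd2 also because a CTCF peak summit lies in its promoter, Foxc1 and Foxf2 because a loop joined the segments that hold them, and Foxa1 because 1 of its loops was in all 3 lists. The Foxe3 promoter lies at chr4:114926018-114926317 on the minus strand and the Foxd2 promoter at chr4:114908849-114909148 on the minus strand. Those of Foxc1 and Foxf2 are at chr13:31806396-31806695 and chr13:31625566-31625865, both on the plus strand. That of Foxa1 is at chr12:57546062-57546361 on the minus strand.
Foxe3: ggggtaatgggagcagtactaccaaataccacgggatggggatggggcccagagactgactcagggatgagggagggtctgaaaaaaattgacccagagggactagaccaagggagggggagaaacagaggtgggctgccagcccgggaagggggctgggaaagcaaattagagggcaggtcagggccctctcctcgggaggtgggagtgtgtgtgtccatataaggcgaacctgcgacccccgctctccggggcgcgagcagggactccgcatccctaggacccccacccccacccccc
Foxd2: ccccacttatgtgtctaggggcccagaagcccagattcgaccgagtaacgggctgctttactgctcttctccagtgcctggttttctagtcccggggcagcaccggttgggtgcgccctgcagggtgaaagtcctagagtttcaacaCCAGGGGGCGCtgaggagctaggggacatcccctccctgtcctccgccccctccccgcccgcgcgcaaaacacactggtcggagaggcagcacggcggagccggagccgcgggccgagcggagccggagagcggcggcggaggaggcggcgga
Foxc1: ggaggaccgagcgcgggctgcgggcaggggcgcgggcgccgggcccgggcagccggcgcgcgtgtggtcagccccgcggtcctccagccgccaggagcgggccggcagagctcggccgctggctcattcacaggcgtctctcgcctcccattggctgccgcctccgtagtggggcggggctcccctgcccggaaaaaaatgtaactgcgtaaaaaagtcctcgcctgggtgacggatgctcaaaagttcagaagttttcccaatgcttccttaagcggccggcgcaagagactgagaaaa
Foxf2: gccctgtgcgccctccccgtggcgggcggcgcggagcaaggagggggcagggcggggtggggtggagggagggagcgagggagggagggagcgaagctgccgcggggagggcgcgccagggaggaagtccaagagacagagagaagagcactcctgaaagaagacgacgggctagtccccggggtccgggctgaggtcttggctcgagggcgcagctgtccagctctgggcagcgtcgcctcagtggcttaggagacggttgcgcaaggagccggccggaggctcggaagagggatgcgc
Foxa1: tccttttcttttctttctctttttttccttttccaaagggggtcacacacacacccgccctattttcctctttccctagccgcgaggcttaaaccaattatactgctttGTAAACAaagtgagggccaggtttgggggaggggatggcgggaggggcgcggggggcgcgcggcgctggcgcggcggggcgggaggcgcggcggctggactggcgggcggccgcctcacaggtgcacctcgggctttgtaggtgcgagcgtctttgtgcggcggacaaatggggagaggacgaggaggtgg

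In the Foxd2 promoter, the CTCF core letters stood at bases 148 to 158 (chr4:114908991-114909001, minus strand), and these letters were found in 85 of 32619 mouse promoters of the same length, 0.261%. They were copied from the Foxd2 promoter, so the match there was fixed in advance and is no finding. The share is that of a single exact string and not of CTCF motifs in general. The Foxa1 promoter held the forkhead letters at bases 110 to 116, as did 3.67% of all promoters. None of the other 3 promoters printed had either motif, which says only that these letters are not in those windows. GC content was 63% at Foxe3, 67.7% at Foxd2, 67.3% at Foxc1, 71.3% at Foxf2 and 62.3% at Foxa1.

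ES cells had 34 loops at the 9 genes among 8459 listed. The epithelium list had 5 among 8005, and the fiber list had 7 among 7682. A loop that joined a pair of these genes was counted once. With the gene body not widened, the ES count was 28. ES cells had an anchor at 8 of the 9 genes (88.9%, exact 95% interval 51.8 to 99.7), against 37.3% of all protein-coding genes and 23% of the 7742 protein-coding genes of at most 10 kb, which are nearer in length to these genes. The epithelium list had an anchor at 4 of 9 (44.4%, 13.7 to 78.8), against 36.2% of all genes and 20.3% of short ones, and the fiber list again at 4 of 9, against 34.5% and 19.3%. Both lens intervals include these backgrounds. The ES interval lies above the shares of all and of short genes, but includes the 60% of the 35 other forkhead genes given below. These intervals take the 9 genes as independent, which they are not. Foxe3 and Foxd2 share ES loops, and ES loops join Foxq1, Foxf2 and Foxc1 to each other. The genes were also chosen with earlier results of these data known. Each list pools its replicates, so no test between cell types could be run, and all intervals cover counting error only. A loop missing from a list was not called there, and the lists give no value for its pixel.

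**Figure D1:**
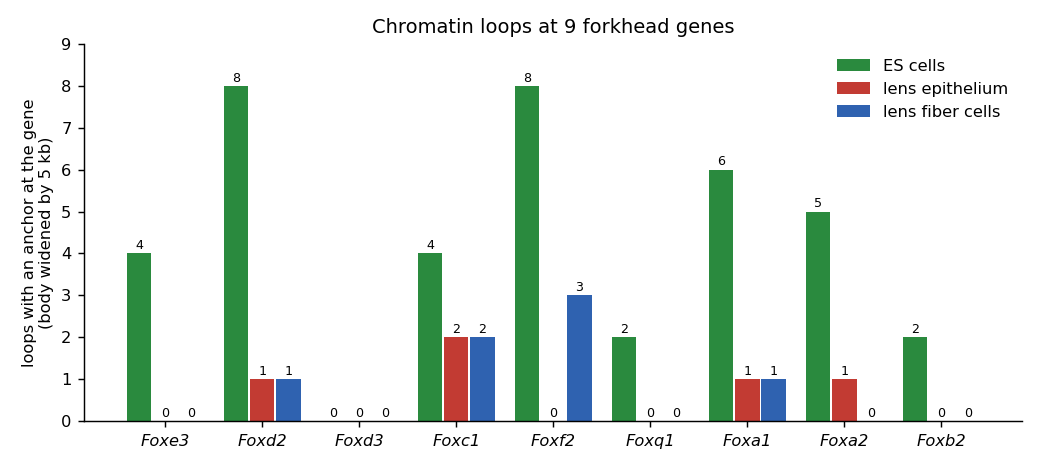
Number of loops with an anchor at each of the 9 forkhead genes (body widened by 5 kb) in ES cells (green), lens epithelium (red) and lens fiber cells (blue); each bar is a count from 1 list of merged replicates, printed above it. Foxd2 and Foxf2 reach 8 loops in ES cells, no lens bar exceeds 3, and Foxd3 has none.

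By gene, Foxe3 had 4 loops in ES cells and 0 in either lens list. Foxd2 had 8, with 1 in each lens list. Foxf2 had 8, 0 and 3 loops in ES cells, epithelium and fiber cells, and Foxc1 had 4, 2 and 2. Foxa1 had 6, 1 and 1, and Foxa2 had 5, 1 and 0. Foxq1 and Foxb2 each had 2 loops in ES cells and 0 in the lens, and Foxd3 had 0 in all 3 lists. The order in ES cells, Foxd2 and Foxf2 first, then Foxa1, Foxa2, Foxe3 and Foxc1, Foxq1 and Foxb2, rests on steps of 1 or 2 loops between neighbours and has no replicate spread.

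Of the 9 genes, 8 had more loops in ES cells than in either lens list, against 16.2% of all genes, 12.5% of short genes and 28.6% of the 35 other forkhead genes. The same 8 had at least 2 ES loops, against 15.3%, 7.65% and 34.3%. Foxe3, Foxq1 and Foxb2 had an anchor in ES cells and in neither lens list, 3 of 9 (33.3%, 7.49 to 70.1) against 9.51%, 8.52% and 14.3%. Only 56 genes, 0.259% of all, had as many ES loops as Foxd2 or Foxf2. At least as many as Foxa1 were found at 169 genes (0.781%), as Foxa2 at 313 (1.45%) and as Foxe3 or Foxc1 at 614 (2.84%). Foxe3 shared 2 of its 4 ES loops with Foxd2, from an anchor without the Foxe3 promoter.

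The wider family, which was not matched to the 9 genes in length, had fewer loops per gene in ES cells and closer means across cell types. Foxa1, the longest of the 9, has 7402 bases, while Foxo1 of the wider family spans chr3:52268337-52350109. A longer body can meet more anchors, and the part of length in these values was not tested. Of the 35 other forkhead genes, 21 had an anchor in the ES list (60%, 42.1 to 76.1), 19 in that of epithelium (54.3%) and 20 in that of fiber cells (57.1%). Their mean was 1.54 loops per gene in ES cells and 0.914 in each lens list. The 9 genes averaged 4.33 in ES cells, 0.556 in epithelium and 0.778 in fiber cells, and all protein-coding genes averaged 0.650, 0.587 and 0.556. Among the other forkhead genes with the most loops, Foxo1 had 3, 3 and 4 in ES cells, epithelium and fiber cells, and Foxb1 had 8, 0 and 0. Foxb1, a gene of the developing brain, thus had the same split between ES cells and lens as Foxe3. Foxf1, the close relative of Foxf2, had 4, 2 and 2, and Foxi1 had 3, 2 and 3.

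**Figure D2:**
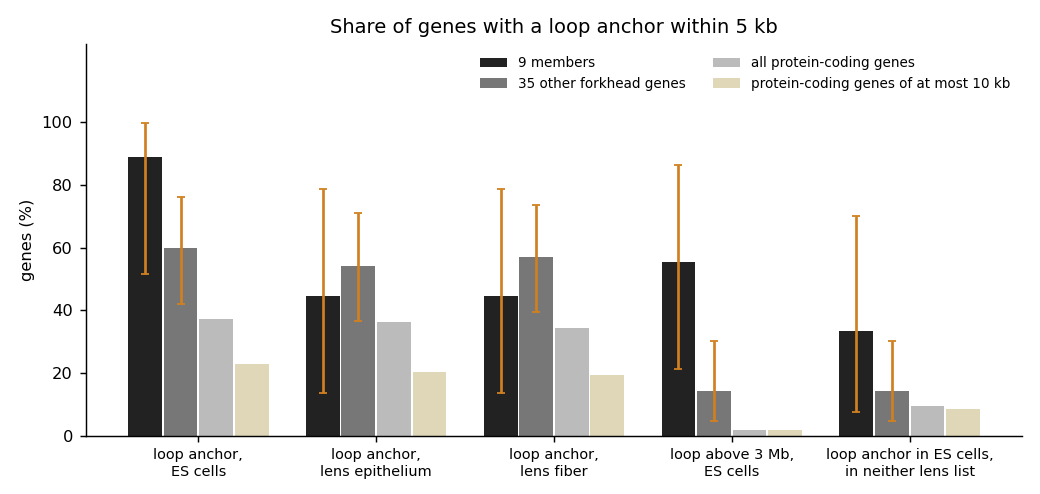
Percent of genes with a loop anchor within 5 kb in each list, with a loop above 3 Mb in ES cells, and with an anchor in ES cells and in neither lens list, for the 9 forkhead genes, the 35 other forkhead genes, all protein-coding genes and those of at most 10 kb; error bars are exact 95% intervals. In ES cells 88.9% of the 9 genes had an anchor, against 60% of the other forkhead genes, which its interval of 51.8 to 99.7 includes, and 37.3% of all genes, which it does not. The lens bars of the 9 genes have intervals that include every background. All intervals take the genes as independent, which the 9 genes are not.

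Loops at these genes in ES cells were long. Their median size, taken between anchor midpoints, was 960 kb (exact 95% interval 665 to 1820) with a range of 60 to 25625 kb, against a median of 220 kb for the whole ES list. Epithelium had a median of 260 kb (list 250 kb) and fiber cells one of 410 kb (list 270 kb). With gene bodies widened by 25 kb the epithelium median was 530 kb, so its nearness to the list depends on that limit. With 5 kb, no lens loop at these genes exceeded 880 kb. Loops above 3 Mb made up 10 of the 34 ES loops (29.4%, 15.1 to 47.5), against 315 loops or 3.72% of the ES list, so 3.17% of all such ES loops had an anchor at 1 of these genes. They were at Foxd2, Foxe3, Foxa1, Foxf2 and Foxc1, 5 of 9 genes against 1.88% of all genes, 1.81% of short genes and 5 of the 35 other forkhead genes. The 2 counted for Foxe3 were also counted for Foxd2, and their anchor leaves out the Foxe3 promoter.

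HiCCUPS counts the contacts in a loop pixel and sets them against an expected number from the pixel's surroundings. The median observed/expected ratio was 7.91 at these genes in the ES list (all its loops 3.06), 3.41 for epithelium (3.05) and 3.35 for fiber cells (2.83). Among ES loops of up to 3 Mb it was 6.77 for the 24 loops at these genes and 3.004 for the list, and above 3 Mb it was 11.2 for both. These 24 loops were longer than the list in that class (median 702.5 kb against 210 kb) and rested on fewer contacts (42 against 57), and the part of size in their ratio was not tested. Counts behind a long loop were small, 15 to 33 contacts in all 10, so its ratio carries a wide interval. The median loop of each list rested on 56 contacts for ES cells, 51 for epithelium and 63 for fiber cells. These counts do not measure map depth, because they come from called loops and depend on anchor width. Loops with 5 kb anchors made up 39.6% of the ES list, 18.3% of the epithelium list and 16.0% of the fiber list. The part of map depth in the loop counts was not tested. ES loops at these genes had a median of 28.5 contacts, fewer than the list.

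**Figure D3:**
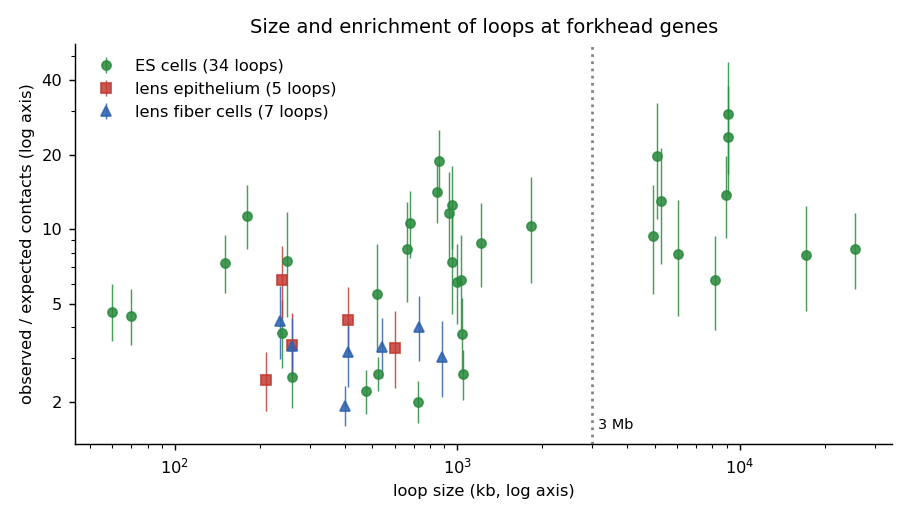
Each point is a loop at 1 or a pair of the 9 forkhead genes, by size in kb (x, log axis) and observed over expected contacts (y, log axis); vertical bars are exact 95% Poisson intervals of the observed count and the dotted line marks 3 Mb. The 10 loops above 3 Mb are all from ES cells, and the lens loops lie between 210 and 880 kb with ratios of 1.93 to 6.23.

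Few of the ES loops recurred in the lens. With both anchor midpoints within 10 kb, 3 of the 34 ES loops (8.82%, 1.86 to 23.7) had a partner in a lens list, against 43.0% of the ES list, and with 25 kb allowed 30 of 34 still had none. Of the loops called at these genes in the lens, 4 of 5 in epithelium (list 64.2%) and 5 of 7 in fiber cells (71.4%, list 65.6%) were shared. The fiber share was 42.9% when both anchors had to overlap, and 25% with all 4 FDR values below 0.01. The 3 shared ES loops were at Foxd2, Foxa1 and Foxf2. At their far ends the 34 ES loops reached 26 distinct protein-coding genes outside the 9. Of the 8 loops that reached none, 3 joined a pair of the 9 genes and 5 ended where no coding gene lies.

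Foxe3, at chr4:114924443-114926067 on the minus strand, lies 15.5 kb from Foxd2, a gene at chr4:114906280-114908898 on the same strand, and 34.5 kb from Cmpk1 on the other side. Its shortest ES loop, of 520 kb, joined the 5 kb segment chr4:114925001-114930000, which holds the Foxe3 promoter printed above, to Trabd2b, a membrane metalloprotease gene. It rested on 17 contacts, 5.45 times the expected number (3.18 to 8.73), and its largest FDR was 0.0384, the weakest call among the ES loops at these genes. A second loop, with an anchor of 10 kb that also holds the promoter, reached a segment 1040 kb away with no coding gene (34 contacts, ratio 3.77, 2.61 to 5.26). Both were called in ES cells alone.

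The other 2 Foxe3 loops shared their anchor with Foxd2. The segment chr4:114900001-114925000 holds the whole of Foxd2, its promoter included, and the 3′ part of Foxe3. These loops thus cannot be given to either gene, and the Foxe3 promoter is outside the segment. They reached Cdkn2a, which encodes cell cycle inhibitors, across 25625 kb (33 contacts, ratio 8.30, 5.71 to 11.7) and Nfia, a nuclear factor gene, across 17150 kb (18 contacts, ratio 7.89, 4.67 to 12.5). In the lens lists the anchor nearest to Foxe3 was 14.4 kb from its body, in both cases that of the Foxd2 loop described next. Loops passing over Foxe3 numbered 10 in ES cells, 5 of them up to 3 Mb, and 0 in both lens lists.

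Foxd2 had a single loop common to all 3 lists. It joined the Foxd2 promoter segment chr4:114905001-114910000 to a segment without coding genes 240 kb below it, in the noncoding gene Gm33655 (235 kb in fiber cells). ES cells had 42 contacts there (ratio 3.81, 2.75 to 5.15), epithelium 37 (6.23, 4.39 to 8.59) and fiber cells 36 (4.27, 2.99 to 5.91). Those intervals overlap. The 3 raw counts were close, and the expected numbers were 11.02, 5.94 and 8.44. The largest FDR of the fiber call was 0.0113, so with all FDR values below 0.01 the loop was not in the fiber list.

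All other Foxd2 loops were called in ES cells alone. Nearby, they reached Tal1, a blood transcription factor gene, at 150 kb (56 contacts, ratio 7.29), a segment at 60 kb (59 contacts, 4.63) and Dmbx1, a midbrain homeobox gene, at 1030 kb (22 contacts, 6.25). The 60 kb loop had its anchor beside the Foxd2 body, within the 5 kb limit. Farther out came Dmrta2, a cortical DM-domain factor gene, at 4920 kb (17 contacts, 9.41) and the cell cycle inhibitor gene Cdkn2c at 5240 kb (15 contacts, 12.97). Several of these distant genes were looped to each other in ES cells across Foxe3 and Foxd2: Cdkn2a to Dmbx1 (18 contacts, 9.001), Cdkn2c to Tal1 (26 contacts, 5.25), Dmrta2 to Tal1 (32 contacts, 4.84) and Dmrta2 to Dmbx1 (36 contacts, 8.65).

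**Figure D4:**
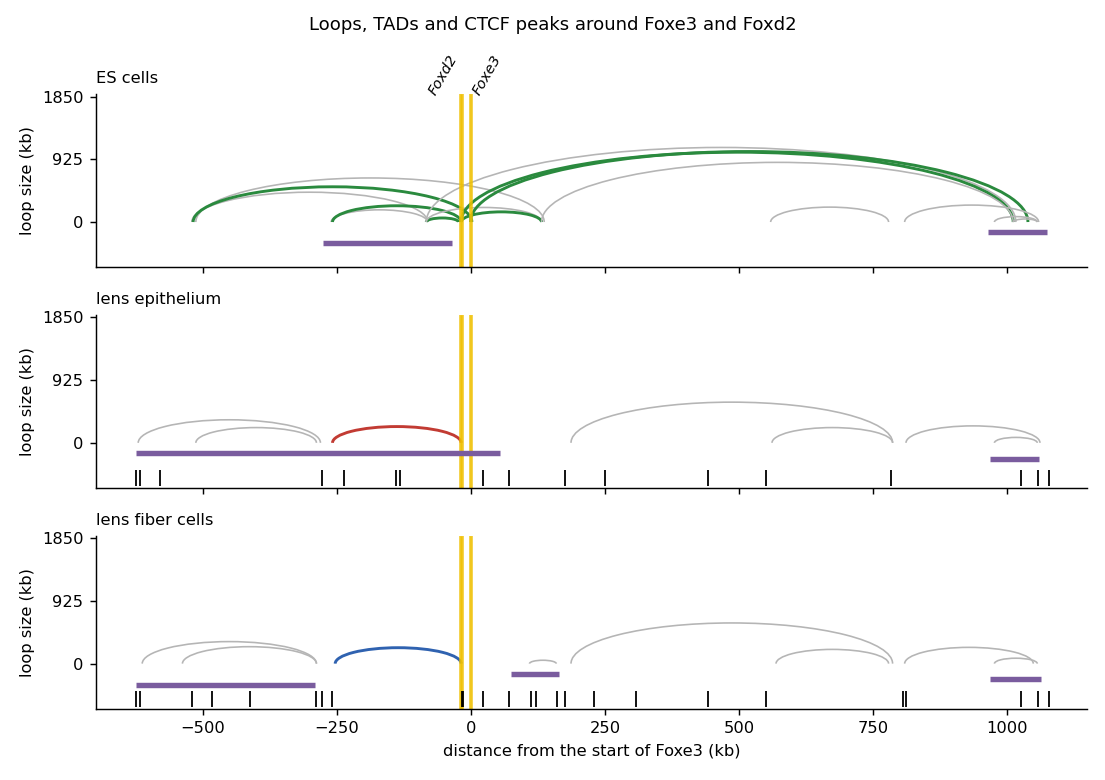
Loops (arcs, height is loop size in kb), TADs (purple bars) and CTCF peaks (black ticks, lens lists only) against distance from the start of Foxe3 in kb, rightwards toward higher coordinates. Coloured arcs end at Foxe3 or Foxd2 (yellow bars), grey arcs do not, and loops leaving the window are not drawn. The coloured arcs are many in ES cells and each lens panel has a single one, ending at Foxd2.

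Around Foxe3 and Foxd2 the TAD lists differed. Lens epithelium had a TAD of 680 kb, chr4:114300001-114980000, that held both genes, and neither ES cells nor lens fiber cells had a TAD touching either. No CTCF peak was within 5 kb of Foxe3, and the nearest was 21.4 kb away in epithelium and 14.0 kb in fiber cells. Foxd2 had 0 peaks in epithelium and 2 in fiber cells. The stronger one (chr4:114908766-114909108, fold enrichment 8.18, higher than 74.2% of fiber peaks) had its summit in the printed promoter, 16 bases from the capital letters, which lie inside the peak. The weaker one had a fold enrichment of 4.39.

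Those capital letters are on the minus strand and so read toward lower coordinates, where the far anchor of the shared 240 kb loop lies. A fiber peak (fold 8.67, summit 114665861) was inside that far anchor as ES cells and epithelium had it, and within 5 kb of it as fiber cells had it. The loop was in the epithelium list too, where neither anchor had an epithelium peak. From the same Foxd2 anchor, ES loops to Tal1 (150 kb, 56 contacts) and Dmbx1 (1030 kb, 22 contacts) ran toward higher coordinates. The letters were picked from this promoter and not found by a motif search, so their place and strand are no finding. Whether the direction of the letters bears on any of these loops was not tested.

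Foxd3, at chr4:99656299-99658671, was the gene without loops. Its nearest ES anchor was 16.3 kb away, and those of epithelium and fiber cells 366 and 341 kb. It was also the only one of the 9 inside a TAD in all 3 lists, with the same upper edge at 99835000 and a size of 545 kb in ES cells and 610 kb in both lens cell types. A CTCF peak with its summit 2.52 kb beyond the gene in epithelium and 2.57 kb in fiber cells was in both lens lists, with a fold enrichment of 5.52 in epithelium and 8.56 in fiber cells.

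Foxq1, Foxf2 and Foxc1 stand in a row on chromosome 13, at chr13:31558170-31560976, chr13:31625816-31631406 and chr13:31806646-31810635, with gaps of 64.8 and 175 kb. In ES cells all 3 pairs were joined by 5 kb anchors that overlap the gene bodies. Foxq1 met Foxf2 across 70 kb (61 contacts, ratio 4.46, 3.41 to 5.73), Foxf2 met Foxc1 across 180 kb (46 contacts, 11.3, 8.28 to 15.1), and Foxq1 met Foxc1 across 250 kb (18 contacts, 7.45, 4.41 to 11.8). The anchors of the Foxf2 to Foxc1 loop hold both promoters printed above. None of these loops was in a lens list within 25 kb.

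Toward higher coordinates, Foxf2 and Foxc1 both reached Tfap2a in ES cells, the gene of the AP-2 alpha factor of neural crest and surface ectoderm. Foxf2 did so by 2 loops of 9080 and 9110 kb (16 and 17 contacts, ratios 29.2 and 23.6, the highest at these genes), and Foxc1 by a loop of 8925 kb (29 contacts, 13.8, 9.22 to 19.8). Foxf2 also met Nrn1, which encodes neuritin, at 5100 kb (15 contacts, 19.7), and Foxc1 met the zinc finger gene Rreb1 at 6025 kb (15 contacts, 7.94). Downward, loops beside Foxf2 reached Uqcrfs1 at 1050 kb, Exoc2 at 725 kb and a noncoding segment at 525 kb, with ratios of 2.59, 2.00 and 2.60 from 25 kb anchors. Their shared anchor ended 0.816 kb before Foxf2, within the 5 kb limit, and held neither its body nor its start.

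The lens loops at Foxf2 and Foxc1 pointed away from the gap between them. Foxf2 had 0 loops in epithelium and 3 in fiber cells, of 730, 540 and 400 kb, all toward lower coordinates (45, 53 and 117 contacts). That of 400 kb had its anchor beside the Foxf2 body, within 5 kb of it. Those of 730 and 540 kb had an ES counterpart within 25 kb. The 540 kb loop also had an epithelium counterpart, whose anchor ended 5.82 kb from Foxf2 and so just outside the 5 kb limit. The count of 0 for Foxf2 in epithelium therefore depends on where that limit was set. Other lens loops had their upper anchor in the gap, beginning at 31650001, past Foxf2 and outside the limit. They ran to Uqcrfs1 in both lens lists (1100 kb), to Exoc2 in epithelium (750 kb) and to a segment without coding genes in fiber cells (570 kb).

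Foxc1 loops of the lens all ran toward higher coordinates. That of 410 kb, to Gmds, a gene of GDP-fucose synthesis, was in both lens lists (40 contacts in epithelium, ratio 4.29, and 44 in fiber cells, 3.18). A loop of 600 kb was at Foxc1 in epithelium (33 contacts, 3.32) and one of 880 kb in fiber cells (34 contacts, 3.03). All 3 had counterparts within 10 kb in ES cells, of 420, 615 and 890 kb, with anchors that end 6.65 kb before Foxc1. The 600 kb loop had a fiber counterpart and the 880 kb loop an epithelium counterpart at the same distance from the gene. All 3 loops were thus in every list, with the Foxc1 anchor in neighbouring bins, and none was particular to the lens. The fiber calls at Foxc1 of 410 and 880 kb were weak, with largest FDR values of 0.0437 and 0.0185.

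**Figure D5:**
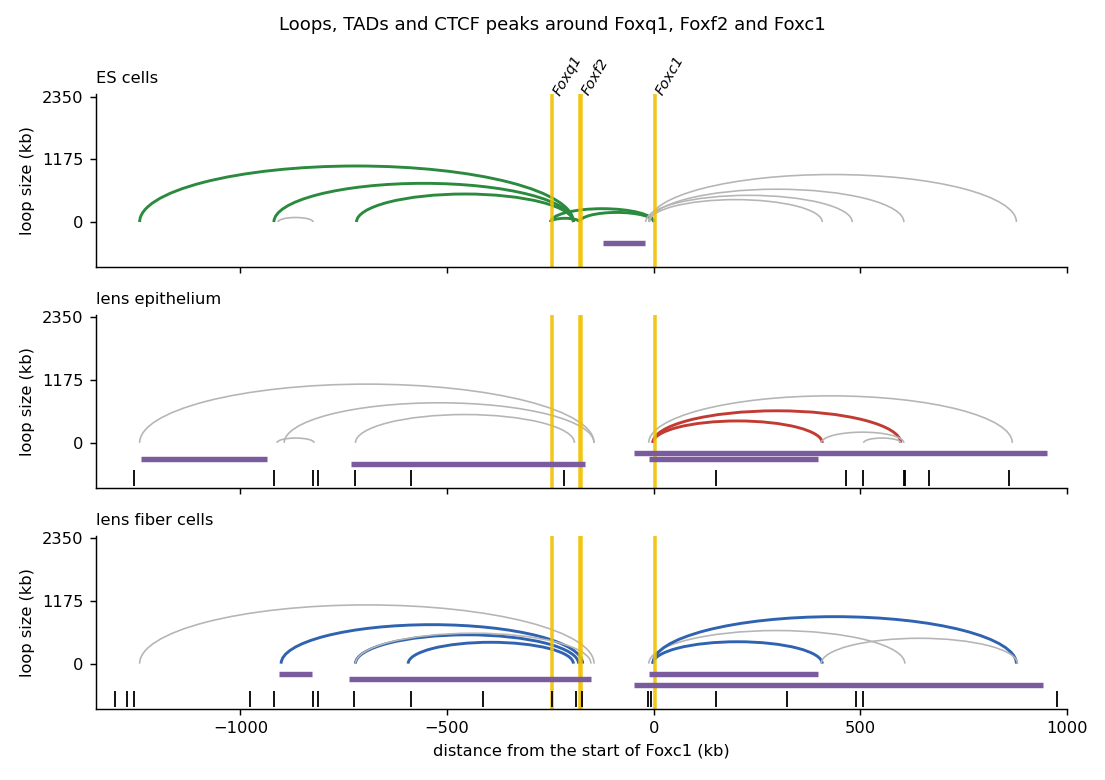
Loops (arcs, height is loop size in kb), TADs (purple bars) and CTCF peaks (black ticks, lens lists only) around Foxq1, Foxf2 and Foxc1 (yellow bars), against distance from the start of Foxc1 in kb, rightwards toward higher coordinates. Coloured arcs end at 1 of the 3 genes, grey arcs do not, and loops leaving the window are not drawn. ES arcs of 70, 180 and 250 kb join the genes, and in the lens panels TADs end on both sides of the gap between Foxf2 and Foxc1.

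TAD edges fell in that gap in every list, at other places. Lens epithelium had a TAD chr13:31075001-31640000 holding Foxq1 and Foxf2 and ending 8.59 kb past Foxf2, and lens fiber cells had chr13:31070001-31655000, ending 23.6 kb past it. On the other side, Foxc1 was in 2 nested TADs in both lens cell types, from 31760001 to 32760000 in epithelium or 32750000 in fiber cells, and from 31795001 to 32205000 in both. In ES cells a TAD of the gap itself, chr13:31685001-31785000, touched none of the 3 genes. Across the midpoint of the gap ran 7 ES loops, 2 of them up to 3 Mb, and 1 loop in each lens list, which was above 3 Mb. That lens loop was of 96425 kb in epithelium (ratio 68.2) and 96420 kb in fiber cells (ratio 4768). It was also 1 of the 7 ES loops, with a ratio of 7.7e+11. Such ratios rest on very small expected numbers, so this call is not read as a result about the gap.

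CTCF peaks in the row were a feature of the fiber list. Foxq1 had a fiber peak inside its body (fold 7.72) and Foxf2 had one 1.25 kb past its end (10.6, higher than 91.6% of fiber peaks). Near Foxc1 a fiber peak of fold 8.24 had its nearer edge 5.12 kb before the gene, just outside the limit, and the summit of another, of fold 11.7, lay 14.0 kb before it. In epithelium none of the 3 genes had a peak within 5 kb, and the nearest were 27.7, 36.9 and 146 kb away.

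Foxa1, at chr12:57540628-57548029, overlaps Ttc6, and 7 of its loops over the 3 lists were also loops of Ttc6. In ES cells it was joined to a series of homeobox and paired-box genes at lower coordinates: Pax9 at 850 kb (53 contacts, ratio 14.1, 10.5 to 18.4), Nkx2-9 at 935 kb (26 contacts, 11.6) and Nkx2-1, a thyroid and lung factor gene, at 1000 kb (30 contacts, 6.12). The anchor of the Nkx2-1 loop lay beside the Foxa1 body, within the 5 kb limit. On the other side Foxa1 met Sstr1, a somatostatin receptor gene, at 665 kb (20 contacts, 8.32). None of these loops was in a lens list.

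The loop of Foxa1 that all 3 lists held, of 260 kb, ended at Mipol1. Contacts were 56 in ES cells (ratio 2.51, 1.90 to 3.26), 44 in epithelium (3.41, 2.48 to 4.58) and 57 in fiber cells (3.36, 2.55 to 4.35), with overlapping intervals. The largest FDR of the ES call was 0.0107, so with all FDR values below 0.01 the loop was not in the ES list. This loop was the single one at these genes in epithelium with an epithelium CTCF peak inside both anchors (fold 5.38 at Foxa1, 5.14 at the other). Fiber cells had no peak within 5 kb of Foxa1, and the nearest was 27.9 kb away. Only in lens fiber cells did a TAD hold Foxa1, chr12:57255001-57790000.

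Foxa2, at chr2:148042877-148046969, showed a like set of ES partners, all 5 toward lower coordinates. They were Pax1 at 680 kb (42 contacts, ratio 10.6, 7.64 to 14.3), Nkx2-2 at 860 kb (45 contacts, 18.8, 13.7 to 25.2), Nkx2-4 with Xrn2 at 960 kb (28 contacts, 12.5), a segment without coding genes at 1210 kb (28 contacts, 8.80), and Insm1 with Cfap61 at 1820 kb (18 contacts, 10.3). Pax1 and Nkx2-2 encode factors of the sclerotome and of the ventral neural tube, and Insm1 a neuroendocrine zinc finger factor. The lens had 1 other loop, of 210 kb in epithelium (55 contacts, 2.44, 1.84 to 3.18), whose anchor began 3.03 kb from the gene and which no other list held. A CTCF peak 1.69 kb before the gene's start was in both lens lists at nearly the same fold, 10.4 in epithelium and 10.6 in fiber cells. An ES TAD of 310 kb, chr2:147800001-148110000, held Foxa2, and no lens TAD did.

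Foxb2, at chr19:16872316-16873830, had 2 ES loops, to the proprotein convertase gene Pcsk5 at 960 kb (20 contacts, ratio 7.40, 4.52 to 11.4) and to Gcnt1, a glycosyltransferase gene, at 475 kb (94 contacts, 2.21, 1.79 to 2.70). The anchor of the Gcnt1 loop lay beside the Foxb2 body, within the 5 kb limit. Neither lens list had an anchor within 47.3 kb of Foxb2. No TAD touched it, and it had a weak CTCF peak in its body in fiber cells (fold 4.46) and none in epithelium.

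Over all 9 genes, epithelium had 3 CTCF peaks, at Foxd3, Foxa1 and Foxa2, and fiber cells had 7, at Foxd2, Foxd3, Foxf2, Foxq1, Foxa2 and Foxb2. As genes these were 3 of 9 in epithelium (33.3%, 7.49 to 70.1), against 31.2% of all genes and 15.7% of short ones, and 6 of 9 in fiber cells (66.7%, 29.9 to 92.5), against 45.9% and 28%. A peak in fiber cells and not in epithelium was at 4 of 9, Foxd2, Foxf2, Foxq1 and Foxb2, against 17.7% and 14.3%. The intervals include these backgrounds, except that of short genes in fiber cells, 28%, which lies just below. The fiber list is the larger of the pair at genes in general, and with 1 list per cell type a peak missing from epithelium cannot be told from one below the calling threshold.

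The ends of the ES loops were set against the lens CTCF lists. A fiber peak was inside both anchors of 6 of the 34 ES loops (17.6%, 6.76 to 34.5), against 33.2% of the ES list, and an epithelium peak inside both of 2 (5.88%, 0.720 to 19.7), against 14.1%. Both intervals include the share of the list. Of the 34, 12 had a fiber peak in neither anchor. In the lens itself, 1 of 5 epithelium loops (20%, the Foxa1 loop) and 1 of 7 fiber loops (14.3%, the 400 kb loop of Foxf2) had a peak of the same cell type inside both anchors. With anchors widened by 5 kb the fiber share was 42.9%, and the epithelium share stayed at 20%. CTCF in ES cells was not analysed here.

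TADs touched 2 of the 9 genes in ES cells (Foxd3 and Foxa2, against 43.4% of all genes and 33.2% of short ones). They touched 6 in the epithelium list (22.8% and 14.5%) and 5 in the fiber list (31.6% and 21.5%). The order of the cell types at these genes was thus the opposite of that over all genes, where ES cells had the highest share. With 9 genes the exact intervals are 2.81 to 60.01% in ES cells, 29.9 to 92.5% in epithelium and 21.2 to 86.3% in fiber cells. They include the share of all genes in ES and fiber cells, and in epithelium that share lies below. The same holds for the share of short genes, which in fiber cells is only just inside. Of the 35 other forkhead genes, TADs touched 57.1% in ES cells, 31.4% in epithelium and 45.7% in fiber cells, and all 3 of these shares lie inside the intervals. Foxe3 and Foxd2 share a TAD, as do Foxq1 and Foxf2, so the 9 genes are not 9 independent places.

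By likeness, taken as the Jaccard index, the number of loops held in common divided by the number held by either gene over the 3 lists, the gene outside the 9 most like a member was Ttc6 for Foxa1 (0.7, the genes overlap). Gmds was next, for Foxc1 (0.308, 4 loops in common), then Mipol1 for Foxa1 and Gcnt1 for Foxb2 (both 0.25). For Foxe3 it was Trabd2b and Cdkn2a (0.143 each), which rests on 1 loop in common.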

How the data were processed

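Hi-C (Arima kit) covered 3 cell types and CTCF ChIP-seq the lens ones. Per the methods and processing notes, the authors aligned Hi-C reads with BWA to mm10 and ran Juicer, merged both replicates of each cell type, and called loops with HiCCUPS and TADs with Arrowhead (juicer_tools 2.13.06). The deposited loop lists give the observed count of contacts per loop, expected counts from 4 surrounding regions made by the authors' HiCCUPS run, and an FDR as a q-value for each. TAD lists give coordinates. The authors called CTCF peaks with MACS2, and the deposited peaks carry a score, fold enrichment over background and −log10 p-value and q-value columns. Map depth was not taken from these lists.

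Genes of RefSeq GRCm38.p6, the reference version of mm10, were overlapped with the lists in Python 3.11.15 (numpy 2.4.6, pandas 2.3.3, scipy 1.17.1, matplotlib 3.10.9). Gene bodies were widened by 5 kb. The donut expectation of HiCCUPS was the expected number used. A loop was shared when both anchor midpoints lay within 10 kb of those in another list, and long above 3 Mb. Intervals are exact 95% intervals (Poisson for contacts, Clopper-Pearson for shares, order statistics for medians). The overlap and interval steps were tested on simulated data. No test between cell types was run. The members and gene lists were chosen with earlier results of these data known. All 9 members, the 5 other forkhead genes with most loops, genes within 5 kb of a far anchor, neighbours and up to 3 genes of highest Jaccard index were named, apart from 1 gene that is not reported here. Nearby genes share loops and TADs and are not independent. The closing section gives the alternatives.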

Additional observations from a re-analysis of the deposited data

How the results depend on the processing

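No paired analysis was possible because both replicates of each cell type had been merged before loops and TADs were called. For the same reason no replicate could be left out. Over 117 alternative values of 24 results, 98 stayed within the limits set for counts (1.5 times) or shares (their interval) and 19 moved. ES cells had more loops at these genes than either lens list in all 6 settings, with 24 to 40 loops against 4 to 9 in epithelium and 4 to 10 in fiber cells. The setting with loops of up to 3 Mb (24 in ES cells) was added after the data were seen.

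With the gene body not widened, shared epithelium loops were 100% (80% as reported), fiber loops with CTCF at both anchors 0% (14.3%), CTCF peaks at the 9 genes 1 in epithelium (3) and 3 in fiber cells (7), and other forkhead genes with a peak 5 (11) and 10 (16). Widened by 25 kb, epithelium loops rose to 9 (5), peaks to 5 and 12, and other forkhead genes with a peak to 25 and 30. With 5 or 10 kb anchors alone, 11 other forkhead genes had an epithelium anchor (19) and 0% of fiber loops had CTCF at both anchors. With all 4 FDR values below 0.01, shared epithelium loops were 100%, and in fiber cells 2 genes had an anchor (4), loops fell to 4 (7) and 25% were shared (71.4%). Some values moved by over 1.5 times inside their wide intervals: fiber loops shared were 42.9% when both anchors had to overlap, fiber loops with CTCF at both anchors were 42.9% with anchors widened by 5 kb and 25% at the stricter FDR, and with gene bodies widened by 25 kb the epithelium median size was 530 kb (260 kb) and its share with CTCF at both anchors 11.1% (20%). Shared ES loops were 15% with that widening and 3.23% at the stricter FDR (8.82%). With the stronger 50% of peaks, epithelium had 1 peak at the 9 genes and 5 other forkhead genes with a peak. The lens values thus rest on few loops and peaks, and contact counts of 15 to 33 limit each ES loop above 3 Mb.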
